A study of Saccharomyces cerevisiae with 36 samples.

Results

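The soluble RNA of budding yeast held at 30 °C was compared between 2 strains, the control WT and the mutant IDRm. The comparison used 4 of the 36 libraries of the series, 2 for each strain, chosen by the strain, temperature and fraction given in their labels. Both strains had the W303 Ade+ background and carried an mCherry tag on Ded1: Ded1-mCherry in WT and Ded1_IDRm-mCherry in IDRm. The tag was therefore shared by both strains, and the sequence change of the mutant allele is not given in the sources used here. Each strain was started from 2 pre-cultures, each main culture was grown at 30 °C and split, and the portion described here was kept at 30 °C for 10 min before harvest on a filter and freezing. The other portions were held at 40 or 42 °C, and RNA was sequenced from the soluble part, the pellet and the total of each. How the soluble part was separated from the pellet is not given in the sources used here. The 2 libraries of a strain came from separate cultures, while fractions and temperatures of a culture share their source.

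Ded1 is a DEAD-box RNA helicase that helps the small ribosomal subunit scan the 5′ leader of mRNAs to the start codon. It is known to leave the soluble phase and form condensates when yeast cells are heated. Soluble mRNA is in general taken to hold transcripts on ribosomes and in small particles, and the pellet to hold large assemblies. What each fraction held here was not tested. All levels below are CPM, read counts scaled to a common library size with the trimmed mean of M values (TMM), which sets each gene against the other transcripts of its library. A change in the amount of all soluble mRNA together is therefore not seen.

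The 4 soluble libraries held between 7652447 and 8501265 counts, and the 36 libraries of the series between 4934241 and 13730247. The correlation of log2 levels over genes was 0.991 between the WT cultures and 0.991 between the IDRm cultures. Between strains it lay between 0.983 and 0.985. DED1, the gene that carries the mutation, had soluble levels of 1111 and 1227 CPM in WT and 1298 and 1222 CPM in IDRm, and the groups overlapped. Its log2 difference, IDRm minus WT throughout, was 0.11 ± 0.13 (standard error of the fit) and did not pass the test. In total RNA DED1 was called lower in IDRm, by a log2 difference of -0.67 ± 0.17 (adjusted p = 0.017). The gap between its soluble and total differences, 0.81 ± 0.23, was not called (adjusted p = 0.0556). STE2, the receptor for alpha-factor that MATa cells express, had 202 and 216 CPM in WT and 172 and 194 CPM in IDRm. STE3, the receptor of MATα cells, had 0.737 and 1.65 CPM in WT and 1.30 and 1.14 CPM in IDRm, near 0 in all 4 libraries, and both receptors are named after their values were seen. URA3, a uracil synthesis gene used as a marker, had 274 and 307 CPM in WT and 209 and 207 CPM in IDRm. Its transcript was thus present in both strains, which does not show whether the gene works. The library numbers in the column names run in separate blocks for the WT soluble and the IDRm soluble libraries, so that strain and library block cannot be told apart.

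WT replicate 2 stood apart in heat shock genes. HSP30, a plasma membrane protein made on heat and other stress, had 4.67 CPM in WT replicate 1 and 231 CPM in WT replicate 2, against 4.03 and 4.80 CPM in IDRm. HSP26, a small heat shock protein, had 9.45 CPM and 194 CPM in the WT libraries in the same order, against 11.2 and 13.7 CPM in IDRm. Of 27 chaperone genes driven by the heat shock factor Hsf1, 11 were at least 1.5 times higher in WT replicate 2 than in WT replicate 1 after adding 0.5 CPM to both levels, against 1 between the IDRm libraries. The same count in WT was 9 in the pellets and 5 in total RNA. Values that rest on this library are given with and without it.

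**Figure D1:**
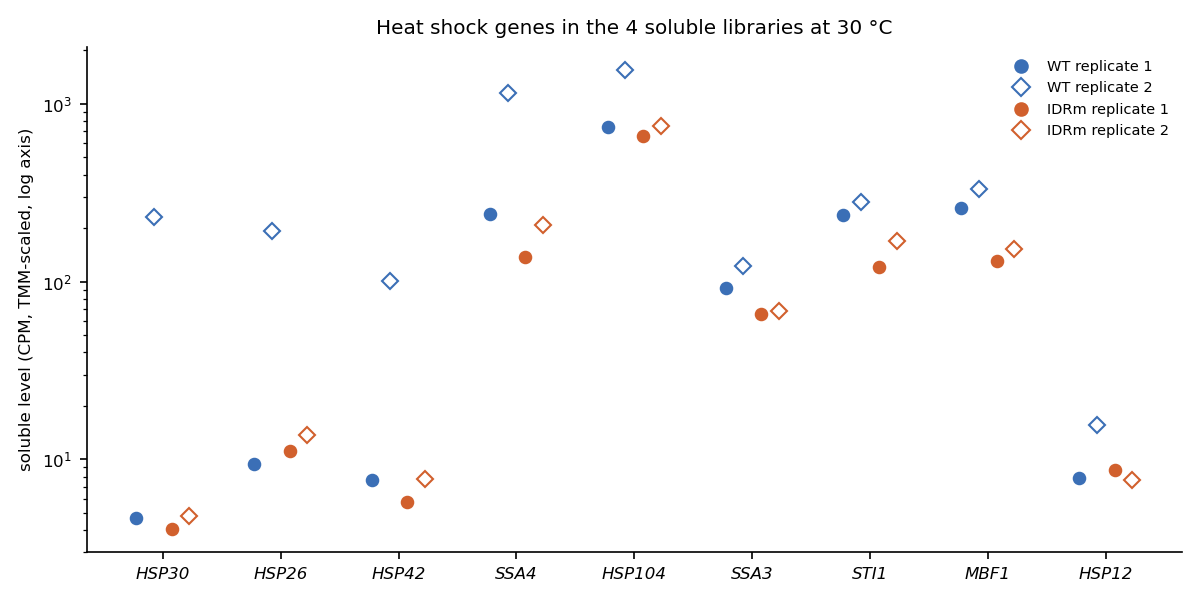
Soluble levels of 9 heat shock and stress genes in CPM with TMM scaling on a log axis, with 1 point for each of the 4 libraries at 30 °C (blue, WT; orange, IDRm; filled circles, replicate 1; open diamonds, replicate 2). For HSP30, HSP26, HSP42 and SSA4 the WT replicate 2 point lies far above the other 3, while for MBF1 and STI1 both WT points lie above both IDRm points.

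Between the strains 418 of 6141 genes differed in soluble RNA at 30 °C (6.81% called). Called means an adjusted p under 0.05 by edgeR's quasi-likelihood test with Benjamini-Hochberg adjustment over all genes tested. In IDRm 272 genes were higher (4.43%) and 146 were lower (2.38%). A difference of at least 2-fold was reached by 85 of the higher (1.38%) and 28 of the lower genes (0.456%). The count rests on both cultures of each strain: it was 235 without IDRm replicate 1, 210 without IDRm replicate 2, 202 without WT replicate 1 and 283 without WT replicate 2, the library with high heat shock genes. Without WT replicate 2, 221 genes were higher and 62 lower, and 248 of the 418 calls kept their direction and their call. The count also depends on libraries outside the comparison, which share its fit: it was 635 without WT 42 °C soluble replicate 2, 160 with the 12 soluble libraries alone and 936 with the 8 pellet and soluble libraries at 30 °C alone. With the 4 libraries of the comparison alone the count was 537, with 324 higher and 213 lower, and 353 of the 418 calls held. The main fit takes its 24 libraries as independent although they come from 4 cultures. In these bulk samples fewer cells in a given state and less RNA per cell cannot be told apart.

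RPP0 encodes P0, the protein that anchors the stalk of the large ribosomal subunit. Its soluble level was 265 and 277 CPM in the 2 WT libraries and 1585 and 1635 CPM in the 2 IDRm libraries. The groups lay far apart, with a log2 difference of 2.57 ± 0.21 (adjusted p = 9.97e-08). CAM1 and TEF4 encode paralogous forms of the gamma subunit of elongation factor 1B. CAM1 stood at 90.7 and 89.3 CPM in WT and 398 and 391 CPM in IDRm, a log2 difference of 2.13 ± 0.15. TEF4 stood at 299.8 and 334 CPM in WT and 653 and 655 CPM in IDRm, a log2 difference of 1.05 ± 0.15. Both were called, and in both genes every IDRm library was above every WT library. For called genes such a separation is only a description, here and below, since the same libraries chose them. RPP0 and CAM1 were among the 10 highest genes in IDRm, beside genes of metabolism and signalling.

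Few other genes of the translation machinery were called. Of 133 ribosomal protein genes tested, 2 rose and 0 fell, against 4.43% and 2.38% of all genes, and the median log2 difference was -0.09 against -0.03 over all genes. Beside RPP0 the gene that rose was RPS11B, which encodes a small subunit protein, with 205 and 249.7 CPM in WT and 568 and 547 CPM in IDRm (1.30 ± 0.23). Reads of its near-identical paralog could be counted with it, since the counting rule is not given in the sources used here. Of 79 ribosome biogenesis genes 1 rose, NOP2, an rRNA methyltransferase, from 239 and 290.2 CPM in WT to 718 and 612 CPM in IDRm (1.33 ± 0.18). Of 29 initiation factor genes 3 rose and 0 fell, against 4.43% and 2.38% of all genes, with a list median of -0.01.

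The initiation genes that rose were EAP1, which encodes a protein that binds the cap-binding factor eIF4E, DBP1, the paralog of DED1, and GCD7, a subunit of the exchange factor eIF2B. DBP1 stood at 17.4 and 18.6 CPM in WT and 25.5 and 35.1 CPM in IDRm, a log2 difference of 0.75 ± 0.16 (adjusted p = 0.00699). EAP1 had 11.5 and 11.3 CPM in WT and 22.2 and 20.4 CPM in IDRm, and GCD7 had 74.8 and 94.7 CPM in WT and 125 and 144 CPM in IDRm. In each of these 3 genes the groups were separate. DBP1 lost its call without IDRm replicate 2 and without WT replicate 1, and GCD7 without either IDRm library or WT replicate 1. Of 13 elongation and termination genes 3 rose and 0 fell, against 4.43% and 2.38% of all genes. The 3 were CAM1, TEF4 and ANB1. ANB1, the form of eIF5A made when oxygen is low, had 6.63 and 6.23 CPM in WT and 13.1 and 9.94 CPM in IDRm. ANB1 lost its call without IDRm replicate 1 and without either WT library. Of 32 genes for stress granule and P-body proteins 1 rose and 1 fell, to be read against the same shares of all genes. PAT1, an activator of decapping, rose from 48.9 and 42.4 CPM to 127 and 118 CPM (1.43 ± 0.13), and PUB1, an RNA-binding protein of stress granules, fell (-0.59 ± 0.13), a call that did not hold without either IDRm library or without WT replicate 1.

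In metabolism the highest gene was ILV6, the regulatory subunit of acetolactate synthase in the synthesis of branched-chain amino acids. Its soluble level was 43.0 and 42.6 CPM in WT and 248 and 287 CPM in IDRm, a log2 difference of 2.65 ± 0.16 (adjusted p = 3.47e-09). PET9, the major ADP/ATP carrier of mitochondria, had 77.6 and 81.1 CPM in WT and 252 and 278 CPM in IDRm. MAE1, the mitochondrial malic enzyme, had 58.9 and 90.0 CPM in WT and 234 and 235 CPM in IDRm. In these 3 genes the lowest IDRm library was well above the highest WT library. ACH1, which encodes a mitochondrial acetyl-CoA hydrolase, had 18.4 and 29.2 CPM in WT and 70.8 and 83.4 CPM in IDRm. CYS3, the lyase that forms cysteine from cystathionine, had 52.9 and 56.5 CPM in WT and 143 and 185 CPM in IDRm. The log2 differences of PET9, MAE1, ACH1 and CYS3 lay between 1.58 and 1.74, all called.

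Signalling genes stood among the highest as well. PTC2, a protein phosphatase that acts on the stress kinase Hog1, had 73.3 and 82.8 CPM in WT and 275 and 284 CPM in IDRm (1.84 ± 0.13). PIB2, which takes part in the control of the growth kinase complex TORC1, had 50.0 and 47.3 CPM in WT and 149 and 174 CPM in IDRm (1.73 ± 0.19). PCL5, a cyclin that directs the breakdown of the transcription factor Gcn4, had 63.8 and 74.1 CPM in WT and 193 and 249.5 CPM in IDRm (1.68 ± 0.18). All 3 were called, and no IDRm library overlapped a WT library, which describes genes chosen by these same libraries.

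Of 17 genes of glycolysis and fermentation 2 rose and 0 fell, against 4.43% and 2.38% of all genes, while the list median was -0.31. PDC1, the main pyruvate decarboxylase, stood at 3131 and 3071 CPM in WT and 6832 and 6419.8 CPM in IDRm (1.10 ± 0.16). ENO2, an enolase, stood at 5299 and 8335 CPM in WT and 14416 and 15565 CPM in IDRm (1.14 ± 0.21), and its paralog could share reads with it. ENO2 lost its call without WT replicate 1. Among 25 genes repressed by glucose 4 rose and 0 fell, against the same shares of all genes, and the median was 0.13. GUT1, glycerol kinase, had 35.2 and 30.9 CPM in WT and 66.2 and 72.2 CPM in IDRm (1.07 ± 0.13). ALD4, a mitochondrial aldehyde dehydrogenase, had 128 and 84.9 CPM in WT and 273 and 188 CPM in IDRm. FBP1, which reverses a step of glycolysis, had 1.84 and 2.41 CPM in WT and 4.68 and 3.66 CPM in IDRm. Of these 3 GUT1 kept its call whichever library was left out, ALD4 lost it without IDRm replicate 1 or WT replicate 2, and FBP1 without IDRm replicate 1 or WT replicate 1. The fourth gene was ADH2, an alcohol dehydrogenase named after its values were seen (0.86 ± 0.18). Of 34 cell wall genes 5 rose and 0 fell, again against 4.43% and 2.38% of all genes, with a median of 0.16. GSC2, a catalytic subunit of glucan synthase, led them with 519 and 603 CPM in WT and 1742 and 1573 CPM in IDRm (1.56 ± 0.14), followed by CIS3 (0.92 ± 0.16) and PIR3 (0.91 ± 0.20), which encode mannoproteins of the wall. PIR3 lost its call without IDRm replicate 2 and without WT replicate 2.

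**Figure D2:**
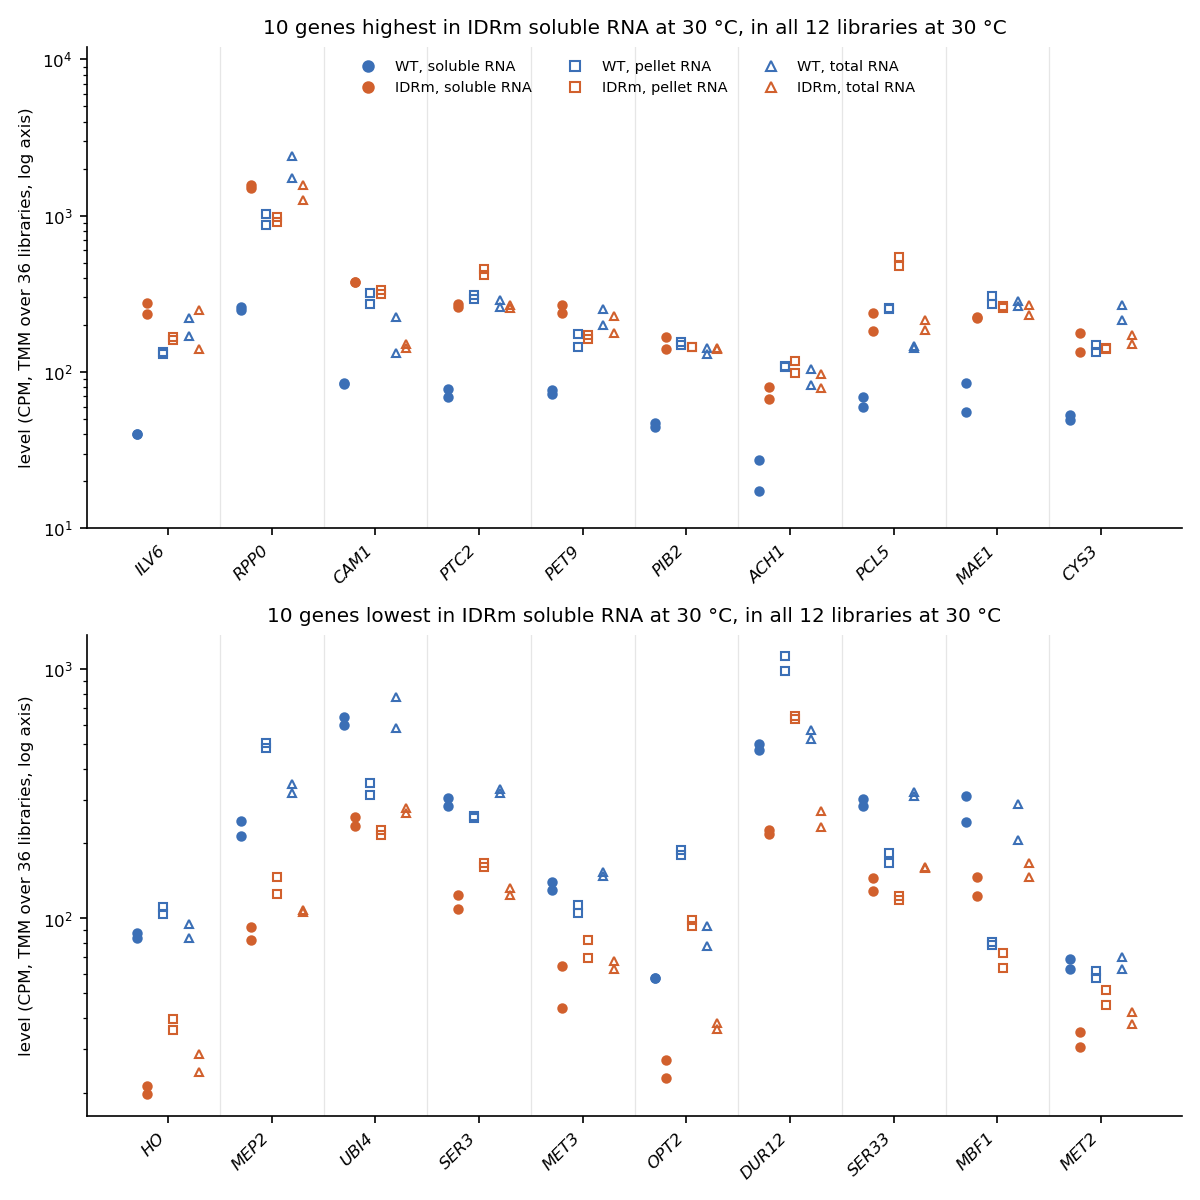
Levels in CPM, TMM-scaled over 36 libraries, on a log axis, for the 10 genes highest and the 10 genes lowest in IDRm soluble RNA (called genes with a standard name and at least 32 CPM on average), in the 12 libraries at 30 °C (blue, WT; orange, IDRm; filled circles, soluble; open squares, pellet; open triangles, total). For the higher genes the 2 WT soluble points lie below the other 10 points, and for the lower genes the IDRm points lie low in total RNA too.

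For most genes higher in IDRm the WT soluble libraries were the lowest of the 12 libraries at 30 °C. Both lay below all 10 other libraries at 30 °C for 196 of the 272 genes, a position that 10.8% of all 6141 genes took. Both IDRm soluble libraries lay above the 10 others for 16 of the 272, against 2.13% of all genes. These positions use the same soluble libraries that chose the genes and are given as a description. On a scale shared by all fractions (TMM over 36 libraries), RPP0 had 249 and 260.1 CPM in WT soluble RNA, 1019.6 and 877 CPM in WT pellets and 2426 and 1746 CPM in WT total RNA. In IDRm the same gene had 1494 and 1571 CPM in soluble RNA, 984 and 916 CPM in pellets and 1268 and 1582 CPM in total RNA. The WT soluble libraries lay below the 10 others for RPP0, as they did for each of the 10 highest genes in IDRm. ILV6 had 40.3 and 40.0 CPM in WT soluble RNA, 135 and 129.7 CPM in WT pellets and 222 and 169 CPM in WT total RNA. In IDRm it had 234 and 276, 160.1 and 167 and 141 and 248 CPM in the same order.

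The strain difference of the pellets was called for 182 genes (2.96%), and that of total RNA for 787 of 6090 genes (12.9%). Of those 272 genes higher in soluble RNA, 39 were also called higher in pellets (1.89% of all genes were) and 1 lower. In total RNA 44 of the 272 were called higher (7.93% of all genes were) and 9 lower. The shared genes made up 33.6% of the 116 genes called higher in pellets and 9.11% of the 483 called higher in total RNA. The median log2 difference of the 272 genes was 0.18 in pellets and 0.08 in total RNA, against 0.03 and 0.00 over all genes. The pellet count was 27 and 83 without IDRm pellet replicates 1 and 2, and 55 and 49 without WT pellet replicates 1 and 2. The total count was 152 and 405 without IDRm total replicates 1 and 2, 386 without WT total replicate 1 and 1483 without WT total replicate 2.

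Whether the strain difference itself differed between fractions was tested with interaction terms, in fits that take all libraries as independent although fractions and temperatures of a culture share it. Soluble and pellet differences differed for 67 genes (1.09%), larger in soluble RNA for 61 (0.993%) and smaller for 6 (0.0977%). Soluble and total differences differed for 153 of 6166 genes (2.48%), larger in soluble RNA for 125 (2.03%) and smaller for 28 (0.454%). These tests use the same soluble libraries as the 30 °C comparison, so their overlap with its calls is given only as a description: 52 of the 272 genes were larger in both. Over all genes the share larger in both was not counted, and it cannot exceed the 0.993% larger in soluble RNA than in pellets. RPP0 differed by 2.54 ± 0.28 from pellet and by 3.14 ± 0.29 from total RNA, and ILV6 by 2.31 ± 0.21 and 2.68 ± 0.30, all called. RPP0, CYS3, TEF4 and PDC1 went the other way in total RNA, where the log2 differences were -0.54 ± 0.16, -0.57 ± 0.17, -0.56 ± 0.12 and -0.66 ± 0.17, each called. In all 3 fractions 22 of the 272 genes were called higher, which cannot exceed 1.89% of all genes, the share called higher in pellets. Of the 10 highest genes PCL5 alone was among these 22, at 1.02 ± 0.17 in pellets and 0.48 ± 0.15 in total RNA. GSC2, outside these 10, was among the 22 too, at 0.89 ± 0.14 and 0.83 ± 0.13. The soluble-pellet count was 25 to 38 without any soluble or pellet library at 30 °C other than WT soluble replicate 2 (76). The soluble-total count ranged from 78 without IDRm total replicate 1 to 427 without WT total replicate 2, where 200 were larger and 227 smaller in soluble RNA, with 84 without IDRm soluble replicate 2, 82 without WT soluble replicate 1 and 86 without WT total replicate 1.

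**Figure D3:**
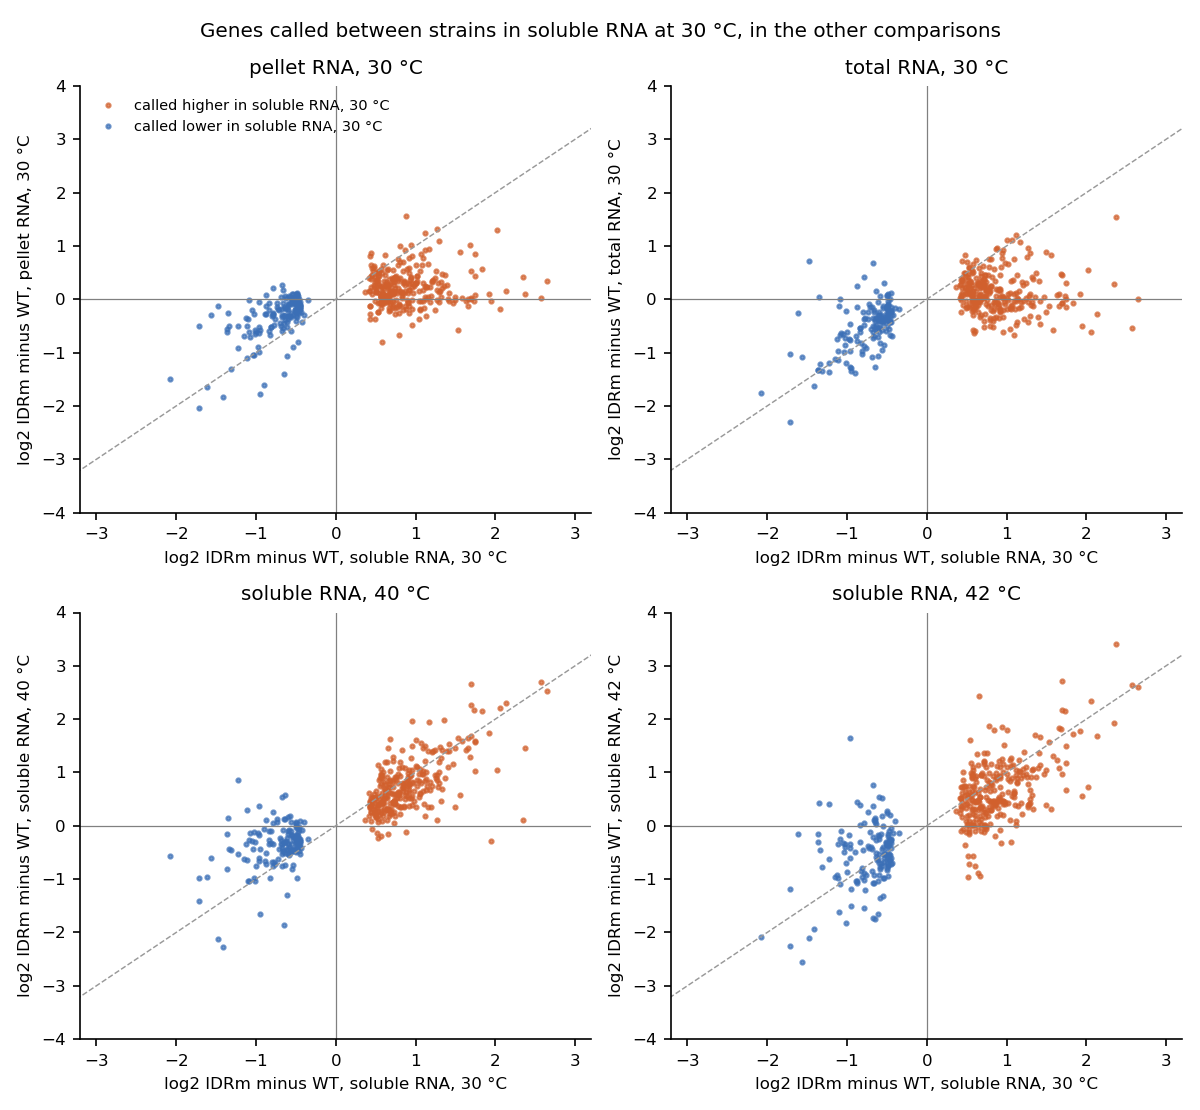
Log2 difference between strains (IDRm minus WT) in soluble RNA at 30 °C on the x axis and in pellet RNA at 30 °C, total RNA at 30 °C, soluble RNA at 40 °C and soluble RNA at 42 °C on the y axes, for the 418 called genes (orange, called higher; blue, called lower; dashed line, equal differences). The higher genes lie close to 0 in pellets and total RNA, with medians of 0.18 and 0.08, and above 0 in soluble RNA at 40 and 42 °C, with medians of 0.67 and 0.59.

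The higher soluble level in IDRm than in WT was seen at the other temperatures as well. Those libraries lie outside the 30 °C comparison, although they share its fit, and come from portions of the same cultures. Their library numbers also run in the same blocks of WT soluble and IDRm soluble libraries as at 30 °C. Strain and library block can therefore not be told apart at 40 and 42 °C either. Of the 272 genes, 174 were called higher at 40 °C (6.99% of all genes were) and 0 lower, and 166 were called higher at 42 °C (13.8% of all genes were) and 7 lower. At both temperatures 135 were called higher, a joint call whose share of all genes was not counted and cannot exceed the 6.99% at 40 °C. In all 686 genes were called at 40 °C (11.2%), or 320 to 353 when any 1 of its 4 libraries was left out, and 2010 at 42 °C (32.7%). RPP0 had 252 and 265 CPM in WT and 1684 and 1676 CPM in IDRm at 40 °C. At 42 °C it had 258 and 379 CPM in WT and 2355 and 1606 CPM in IDRm. Its log2 differences of 2.70 ± 0.21 and 2.64 ± 0.21 stood beside 2.57 ± 0.21 at 30 °C, and the change between 42 and 30 °C was 0.07 ± 0.28. ILV6 differed by 2.53 ± 0.16 and 2.60 ± 0.16 at the higher temperatures, PTC2 by 2.15 ± 0.13 and 1.72 ± 0.13, and PIB2 by 2.16 ± 0.20 and 2.15 ± 0.21, all called.

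A change of the strain difference with temperature was tested with interaction terms, which share the 30 °C libraries with the calls and are given for their sizes. Between 40 and 30 °C the difference changed for 38 genes (0.619%), or 8 to 17 when any 1 of the 40 °C soluble libraries was left out, 10 without IDRm 30 °C soluble replicate 1 and 23 without WT 30 °C soluble replicate 1. With the culture as a block it was 62, of which 37 changed to higher and 25 to lower values, against 30 and 8. Between 42 and 30 °C it changed for 566 genes (9.22%), to higher values for 218 (3.55%) and to lower for 348 (5.67%). That count was 250 without IDRm 30 °C soluble replicate 1, 325 without WT 30 °C soluble replicate 1 and 1811 without WT 42 °C soluble replicate 1. Of the 272 higher genes 7 changed to higher and 24 to lower values, and of the 146 lower genes 25 changed to higher and 5 to lower values. GCD7 changed from 0.67 ± 0.18 at 30 °C to -0.94 ± 0.18 at 42 °C, where IDRm was called lower. TEF4 and NOP2 were at 0.10 ± 0.15 and 0.32 ± 0.18 at 42 °C, not called, and GSC2 at 0.31 ± 0.14, each with a called change. DBP1 went from 0.75 ± 0.16 at 30 °C to 1.36 ± 0.18 at 42 °C, and that change of 0.61 ± 0.24 was not called (adjusted p = 0.112). Among the lower genes HXK1 went from -0.96 ± 0.20 at 30 °C to 1.64 ± 0.20 at 42 °C, XBP1 to 0.41 ± 0.19, UBI4 to -0.31 ± 0.12 and SER3 to -0.16 ± 0.11, each with a called change. HO was the lowest at 30 °C of the called genes with a standard name and at least 32 CPM. Its difference changed by 1.52 ± 0.27 between 40 and 30 °C, which was called. Between 42 and 30 °C it changed by -0.02 ± 0.22, which was not.

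Called genes were not spread evenly over GC content. In the lowest of 5 bins of coding sequences by GC content, 10.4% to 37.3%, 1.04% of 1158 genes were called higher. The share was 2.16%, 4.49% and 5.88% in the next bins and 9.50% in the highest, 42.9% to 59.1%. The share called lower ranged from 1.73% to 3.28% with no such order. The median GC content was 42.15% for the 267 higher genes with a coding sequence and 39.96% for the 146 lower genes, against 39.74% for all 5787. For the 52 genes whose difference was larger in soluble RNA than in both pellets and total RNA it was 44.62%, over the 49 with a coding sequence. With a trend over GC content removed from each library the calls came to 491, made up of 282 higher and 209 lower, and 372 of the 418 calls held. By coding length the share called higher was 2.07% for the shortest and 8.04% for the fourth of 5 bins, 1452 to 2103 bases, and 3.71% for the longest. The median strain difference in the highest GC bin was 0.05 in soluble RNA and -0.11 in total RNA, and in the lowest bin -0.08 and 0.10. The part that base composition plays in the called differences was not tested further.

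**Figure D4:**
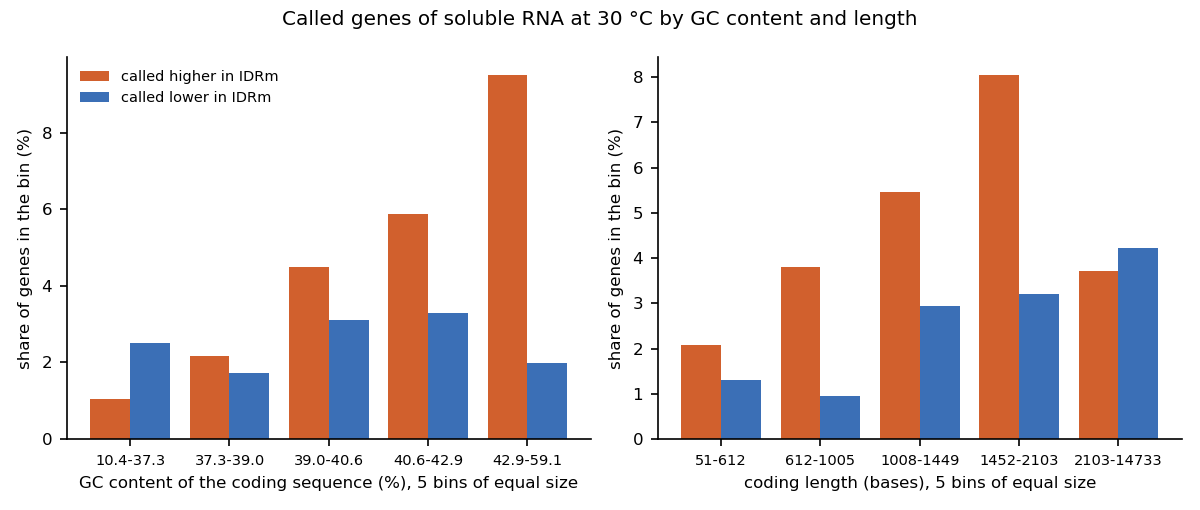
Share of genes called higher (orange) and lower (blue) in IDRm soluble RNA at 30 °C, in percent of the genes in each of 5 equal bins of GC content of the coding sequence and of coding length. The share called higher goes from 1.04% in the lowest to 9.50% in the highest GC bin.

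Each of the 10 lowest named genes was called lower in total RNA as well, with log2 differences there from -1.75 ± 0.14 for HO to -0.65 ± 0.15 for MBF1. HO, the endonuclease that switches mating type, had the largest fall among these 10, with 89.0 and 92.9 CPM in WT and 20.9 and 22.2 CPM in IDRm, a log2 difference of -2.08 ± 0.15 (adjusted p = 2.94e-08). It was also called lower in pellets (-1.49 ± 0.14) and total RNA (-1.75 ± 0.14). MEP2, an ammonium permease, had 228 and 261 CPM in WT and 87.1 and 95.8 CPM in IDRm (-1.42 ± 0.17), and was called lower in pellets (-1.83 ± 0.17) and total RNA (-1.63 ± 0.13). SER3 and SER33 encode paralogous enzymes that start serine synthesis. SER3 had 303 and 323 CPM in WT and 115 and 129 CPM in IDRm, and SER33 had 301 and 322 CPM and 137 and 151 CPM. OPT2, an oligopeptide transporter, had 61.8 and 61.5 CPM in WT and 24.3 and 28.1 CPM in IDRm, and DUR12, urea amidolyase, had 537 and 506 CPM and 241 and 227 CPM. All were called, and every IDRm library of these genes was below every WT library.

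Of the 146 lower genes 67 were also called lower in total RNA (4.99% of all genes were) and 0 higher, and 22 were lower in pellets (1.07% of all genes were) and 0 higher. The 67 are 22.0% of the 304 genes called lower in total RNA, and the 22 are 33.3% of the 66 called lower in pellets. The median log2 difference of the 146 was -0.41 in total RNA and -0.26 in pellets. In 35 of the 146 the WT soluble libraries lay above all others at 30 °C (8.22% of all genes), and in 33 the IDRm soluble libraries lay below all others (3.65%). With heat, 35 of the 146 were called lower at 40 °C (4.18% of all genes were) and 3 higher. At 42 °C, 78 were called lower (18.9% of all genes were) and 5 higher. HO itself had 6.40 and 7.35 CPM in WT and 4.97 and 4.38 CPM in IDRm at 40 °C, where it was not called, and 31.9 and 48.9 CPM and 9.53 and 9.17 CPM at 42 °C, where it was.

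Genes of sulfate assimilation and methionine synthesis made up the list with the most called members of the 34 that were examined. Of 27 tested, 14 fell and 3 rose, against 2.38% and 4.43% of all genes, and the list median was -0.60, against -0.03 over all genes. The medians in pellets and total RNA were -0.27 and -0.54. MET3, ATP sulfurylase, which starts sulfate assimilation, had 138 and 149 CPM in WT and 46.6 and 67.1 CPM in IDRm (-1.34 ± 0.15). MET2, which activates homoserine for methionine synthesis, had 66.5 and 73.1 CPM in WT and 32.3 and 36.3 CPM in IDRm (-1.02 ± 0.12). MET17, which joins sulfide to the carbon backbone, had 264 and 225 CPM in WT and 109 and 145 CPM in IDRm (-0.95 ± 0.26), and lost its call when any 1 of the 4 libraries was left out. The other members are named after their values were seen. MET5 and MET10, the subunits of sulfite reductase, differed by -1.01 ± 0.12 and -0.68 ± 0.13, and MET14 and MET16, which carry out the steps after MET3, by -0.65 ± 0.18 and -0.50 ± 0.14. MET6, methionine synthase, differed by -0.76 ± 0.18, MET13, which supplies its methyl donor, by -0.60 ± 0.16, CYS4, which makes cystathionine, by -0.54 ± 0.15, and MET32, a transcription factor of the pathway, by -0.61 ± 0.17. The rest were STR3 (-1.11 ± 0.27), a lyase that forms homocysteine, MET1 (-0.84 ± 0.14), which helps build siroheme, and MHT1 (-0.81 ± 0.19), a methyltransferase that remakes methionine. In total RNA each of the 14 genes but MET16 and MET32 was called lower as well.

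The 3 members that rose in soluble RNA were CYS3, MET8 and SAM3. MET8, which helps build the siroheme group of sulfite reductase, was at 2.58 and 2.67 CPM in WT and 15.3 and 6.28 CPM in IDRm, and the call of its difference of 2.02 ± 0.39 was lost without IDRm replicate 1. SAM3, a permease for S-adenosylmethionine named after its values were seen, was at 165 and 167 CPM in WT and 294 and 283 CPM in IDRm. In total RNA CYS3 and SAM3 were lower in IDRm, at -0.57 ± 0.17 and -0.51 ± 0.13. The count of lower members was 6 without IDRm replicate 1, 8 without IDRm replicate 2, 7 without WT replicate 1 and 7 without WT replicate 2. The list median then lay between -0.58 and -0.51.

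The promoters of 3 of the 14 lower genes held CACGTG, the E-box bound by Cbf1, which regulates this pathway together with Met4. A promoter is here the 250 bases before and the first 50 bases of the coding sequence, in the R64 genome, and both strands read alike since the motif is its own reverse complement. It was in 5 of the 13 other tested members and in 2.95% of 5762 tested genes with a promoter. The windows of 60 bases around the first match are shown 5′ to 3′ on the gene's strand, to place the motif beside the genes that fell, with CACGTG in capitals.
MET10, chrVI:213062-213121, plus strand: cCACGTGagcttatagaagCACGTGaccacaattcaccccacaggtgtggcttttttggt
MET14, chrXI:439576-439635, minus strand: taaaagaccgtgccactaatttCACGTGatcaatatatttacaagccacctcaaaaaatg
MET16, chrXVI:877778-877837, minus strand: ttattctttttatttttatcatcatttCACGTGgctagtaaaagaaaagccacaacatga
MET10 held 2 matches, and those of MET14 and MET16 began 228 and 178 bases before the start codon. The Gcn4 motif TGACTC, searched on both strands, was in 2 of the 14 lower genes and in 8.17% of all promoters. The other 11 lower genes, MET3 and MET2 among them, had no CACGTG in this window.

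Other lists of biosynthesis genes held fewer calls, to be read against 4.43% of all genes called higher and 2.38% lower. Of 15 purine synthesis genes 4 fell and 2 rose, with a median of -0.20. ADE17, which closes the purine ring, was at 1719 and 1715 CPM in WT and 782 and 981 CPM in IDRm (-0.96 ± 0.17), and IMD2, IMP dehydrogenase, was at 86.9 and 110.4 CPM and 55.5 and 55.6 CPM (-0.83 ± 0.13). BAS1, the transcription factor of the pathway, rose from 82.9 and 80.4 CPM to 140.3 and 144 CPM (0.80 ± 0.16), as it did in pellets (1.00 ± 0.15) and total RNA (0.75 ± 0.16). Of 58 amino acid synthesis genes 4 fell and 2 rose, with a median of -0.11. Of 18 phosphate genes 3 fell and 0 rose, with a median of -0.05: PHM6 (-0.96 ± 0.26), a gene induced when phosphate is scarce, and the acid phosphatases PHO12 (-0.65 ± 0.16) and PHO11 (-0.61 ± 0.18), whose near-identical sequences can share reads. All 3 lost their call without IDRm replicate 2 and without WT replicate 2. Of 40 plasma membrane transporters 3 fell and 3 rose, with a median of 0.16. Beside MEP2 the lower ones were GAP1, the general amino acid permease, with 819.8 and 1064 CPM in WT and 464 and 507 CPM in IDRm, and PUT4, a proline permease, with 17.9 and 21.1 CPM and 9.36 and 11.4 CPM. GAP1 differed by -0.96 ± 0.14 in soluble RNA and by -1.77 ± 0.14 in pellets, and PUT4 lost its call without IDRm replicate 1 and without WT replicate 2. The gap between the soluble and pellet values of GAP1 was called (0.82 ± 0.20, adjusted p = 0.049).

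Several differences of heat shock and stress genes depended on 1 library. Of 27 Hsf1 chaperone genes 5 fell and 0 rose, against 2.38% and 4.43% of all genes, with a median of -0.47. MBF1, a coactivator of Gcn4, was at 259.6 and 330.5 CPM in WT and 131 and 153 CPM in IDRm (-1.06 ± 0.17). STI1, a cochaperone that links Hsp70 and Hsp90, was at 237 and 281 CPM and 121 and 168 CPM (-0.84 ± 0.17), and SSA3, an Hsp70, at 92.5 and 122 CPM and 65.5 and 68.7 CPM (-0.68 ± 0.17). HSC82, the constitutive Hsp90, and SSA2, an abundant Hsp70, also fell, and are named after their values were seen. Neither of them kept its call without WT replicate 2. Without WT replicate 2 the list had 2 lower genes and 1 higher, and its median was -0.13. Without WT replicate 1 it had 12 lower genes, without IDRm replicate 1 it had 1 and without IDRm replicate 2 it had 2. Without WT replicate 2, MBF1 and STI1 were still called, at -0.87 and -0.71, and SSA3 was not, at -0.46. STI1 lost its call without IDRm replicate 1, and SSA3 without either IDRm library.

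The heat shock genes with the largest differences did not pass the test. HSP42, a small heat shock protein, had 7.61 CPM in WT replicate 1 and 101 CPM in WT replicate 2, against 5.72 and 7.77 CPM in IDRm (adjusted p = 0.0637). SSA4, an Hsp70 induced by heat, had 240.2 and 1151 CPM in WT and 138 and 208 CPM in IDRm (-2.01 ± 0.60). HSP30 and HSP26 differed by -4.73 ± 1.47 and -3.02 ± 0.97, and HSP104, a disaggregase, by -0.70 ± 0.26. Without WT replicate 2 these 5 differences were -0.17 for HSP42, -0.47 for SSA4, -0.07 for HSP30, 0.40 for HSP26 and -0.07 for HSP104. HSP12, a small membrane protein, had 7.86 and 15.6 CPM in WT and 8.71 and 7.65 CPM in IDRm (-0.52 ± 0.60). Of 31 genes of the general stress response driven by Msn2 and Msn4, 3 fell and 1 rose, against 2.38% and 4.43% of all genes. The median was -0.29, or 0.00 without WT replicate 2. UBI4, polyubiquitin, fell from 638 and 688 CPM to 249 and 267 CPM (-1.36 ± 0.12), and was called lower in total RNA (-1.32 ± 0.14). XBP1, a repressor, was at 12.9 and 16.1 CPM in WT and 6.11 and 6.28 CPM in IDRm, and HXK1, a hexokinase, at 149 and 119 CPM and 57.0 and 80.9 CPM. UBI4 and XBP1 kept their call in every alternative that was run, and HXK1 lost it without IDRm replicate 1 and without WT replicate 1.

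A heat shock element, searched on both strands as TTC, GAA and TTC with 2 bases of any kind between each, was in 8 of the 27 Hsf1 promoters and in 0.781% of all promoters. The promoters of HSC82 and SSA2 were not looked up singly. Among MBF1, STI1 and SSA3, STI1 alone held a match, and its window is shown with its 2 matches in capitals. The first began 242 bases before the start codon, and the other, on the opposite strand, 216 bases before it.
STI1, chrXV:380803-380862, plus strand: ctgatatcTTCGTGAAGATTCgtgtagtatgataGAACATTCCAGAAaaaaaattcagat
The promoters of MBF1 and SSA3 held no match of this form in the window.

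Of 6 a-specific genes 3 fell and 0 rose, against 2.38% and 4.43% of all genes, with a median of -0.33: MFA2, a-factor, from 9.94 and 9.66 CPM to 5.33 and 5.83 CPM, BAR1, the protease that cuts alpha-factor, from 151 and 163 CPM to 104 and 112 CPM, and STE6, the a-factor exporter, from 614 and 647 CPM to 458 and 451 CPM. The difference of BAR1 was -0.54 ± 0.15 in soluble RNA, -0.89 ± 0.14 in pellets and -0.86 ± 0.12 in total RNA. Of 3 alpha-specific genes tested 0 were called by edgeR, 0 by DESeq2 and 0 had an unadjusted p under 0.05, with summed levels of 16.1 and 15.8 CPM in WT and 17.3 and 19.1 CPM in IDRm. Those sums were 981 and 1039 CPM and 743 and 767 CPM for the a-specific genes. Of 8 other mating genes 1 fell, FUS1, which acts in cell fusion, at 3.68 and 4.19 CPM in WT and 1.56 and 2.40 CPM in IDRm. FUS1 lost its call when any library but IDRm replicate 2 was left out. Of 8 auxotrophy markers 2 fell, MET17 and URA3 (-0.48 ± 0.14). MFA2, BAR1, STE6 and URA3 each lost the call when any 1 of the 4 libraries was left out.

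The remaining lists held few calls, to be read beside the 4.43% of all genes called higher and the 2.38% called lower. Among 14 hexose transport genes 2 rose, GAL2 (1.15 ± 0.31) and HXT3 (0.68 ± 0.20), with a median of 0.32. Of 39 nuclear-encoded respiratory chain genes 2 rose, SDH1, a subunit of succinate dehydrogenase (0.68 ± 0.14), and NDE1, an NADH dehydrogenase (0.51 ± 0.14). Of 68 mitochondrial ribosomal protein genes 2 rose, MRP20 (1.27 ± 0.20) and MRP1 (0.49 ± 0.15). Of 24 ergosterol genes 2 rose, ERG24 (0.53 ± 0.15) and ERG6 (0.50 ± 0.14), and of 20 actin genes 2 rose, ABP1 (0.61 ± 0.18) and SLA1 (0.43 ± 0.13). Of 34 proteasome genes 1 rose, PUP1 (0.65 ± 0.18), and of 20 nuclear transport genes 1 rose, GSP2 (0.58 ± 0.15). Of 10 histone genes 2 fell, HHF1 (-0.73 ± 0.13) and HHF2 (-0.51 ± 0.14), both for histone H4 and able to share reads, and of 24 cell cycle genes 2 fell, FAR1 (-0.64 ± 0.11) and RNR1 (-0.43 ± 0.12). Of 35 genes for spindle and coiled-coil proteins 1 fell, STU1 (-0.80 ± 0.21), with 3 of 35 members above 0 and a median of -0.40. Of 11 one-carbon genes 1 fell, MTD1 (-0.35 ± 0.10), and of 17 iron genes 1 fell, FIT2 (-1.09 ± 0.24). Of 8 mitochondrially encoded genes, 31 genes of ER translocation and glycosylation and 14 of fatty acid synthesis, 0 were called by edgeR, with medians of 0.38, 0.00 and -0.08. DESeq2 called 1 of these, an ER gene that was lower, and 0, 4 and 3 of them had an unadjusted p under 0.05 in edgeR. Of the genes named in the remaining lists MRP20, HHF1 and FAR1 kept their call whichever of the 4 libraries was left out, and each of the others lost it in at least 1 case.

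**Figure D5:**
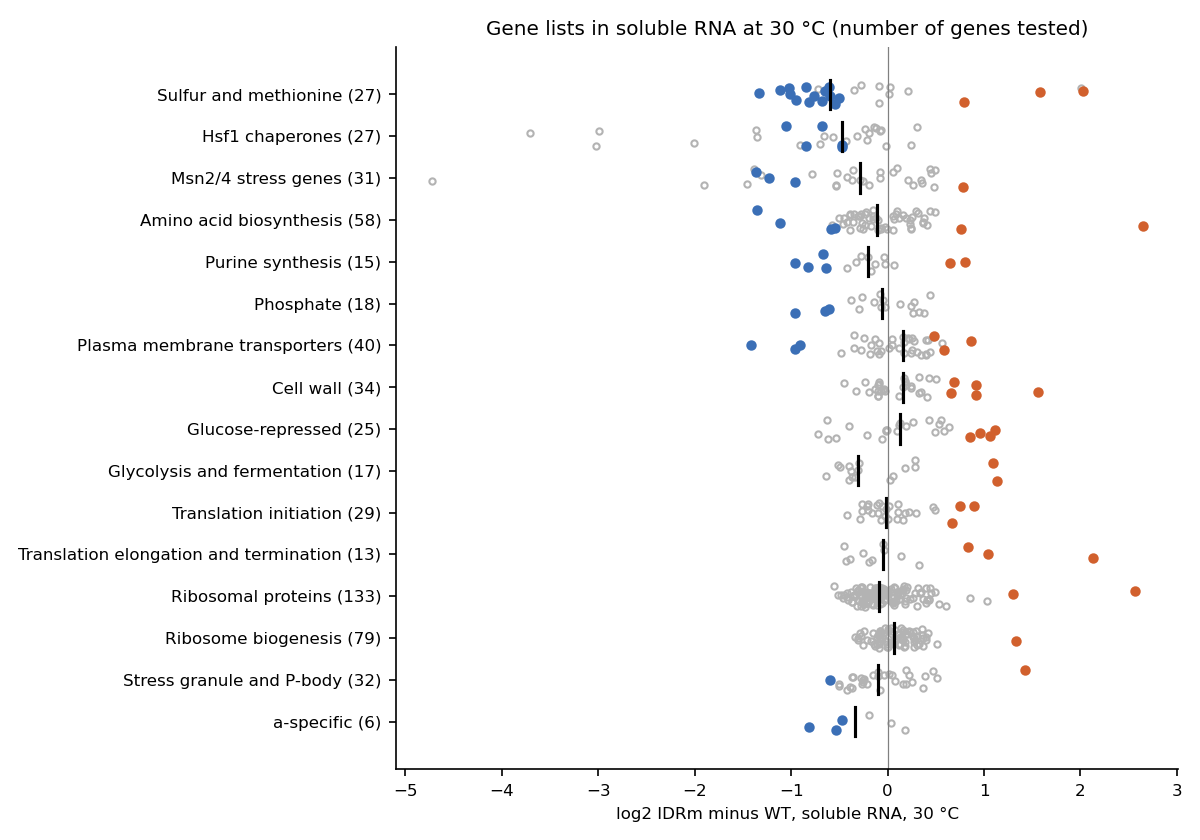
Log2 difference between strains in soluble RNA at 30 °C for every tested member of 16 gene lists (orange, called higher in IDRm; blue, called lower; grey, not called; black bar, list median; number of genes tested in parentheses). The sulfur and methionine list has 14 members called lower and 3 called higher, and the ribosomal proteins cluster near 0 apart from RPP0 and RPS11B.

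How well the fractions add up to total RNA was estimated for each harvest, as a weighted sum of soluble and pellet levels fitted to total levels over the genes that reached 50 counts in each of its 3 libraries. Libraries with the same replicate number were taken as 1 harvest. The pellet took 22.3% and 18.1% of the weight in the WT harvests and 7.9% and 3.8% in the IDRm harvests. The standard deviation of log2 total levels around the sum was 0.566 and 0.343 in WT and 0.276 and 0.219 in IDRm. The sum thus fitted the WT harvests less closely, which limits the comparison of the shares. At a minimum of 200 counts the shares were 20.5%, 18.6%, 6.7% and 3.9% in the same order. No test was made, since an exact two-sided permutation test of 2 values against 2 cannot go below 0.333. The WT soluble libraries enter both this sum and the choice of the 272 higher genes, so the next values are a description. Total RNA was at least 1.5 times above both fractions for 24 of 240 of them in WT harvest 1 (10.0%, against 1.24% of 4987 genes) and for 18 of 243 in WT harvest 2 (7.41%, against 0.574% of 5048 genes). In IDRm it was so for 0 of 257 (against 0.0197% of 5072 genes) and 0 of 258 (against 0.235% of 5101 genes). Those shares are so low that 0 says little about these genes in IDRm. The sum assumes that each fraction's library holds all its transcripts in their true proportions, which was not tested.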

How the data were processed

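Reads were aligned to R64 with STAR 2.5.2b after demultiplexing by bcl2fastq 2.19.1, per the submitters' processing notes. The authors deposited raw counts per gene, not normalised. The counting tool and strandedness remain not given in the sources used here, so paralogs and overlapping or antisense genes are uncertain. Of 6697 genes in the table, 6014 were found in the R64 annotation by locus tag. The other 683 held 0.277% of counts and stayed in the tests. Models with 1 term per group were fitted in edgeR 4.0.16 (R 4.3.3), using TMM scaling and genes kept by filterByExpr (minimum count 10): 24 pellet and soluble libraries (6141 genes, 12 residual degrees of freedom), 12 total libraries (6090 genes, 6), and all 36 for soluble against total (6166 genes, 18). Values after ± are standard errors, computed back from the test as the absolute log2 difference divided by the square root of its F statistic. P-values rest on 2 cultures per group. Named genes were the 10 highest and 10 lowest called genes with a standard name and at least 32 CPM, up to 3 called members per list with the largest differences, and 11 genes named always. Others are said to be named after their values were seen. Members and the 34 lists were chosen with earlier results of these data known. Alternatives included DESeq2 1.42.0, RLE scaling and left-out libraries.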

Additional observations from a re-analysis of the deposited data

Results flagged for a closer look

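The strain difference in soluble RNA was tested for a change with heat by interaction terms, within the 24 pellet and soluble libraries. It differed between 40 and 30 °C for 38 genes (0.619%) and between 42 and 30 °C for 566 genes (9.22%). Of the genes always named, 5 differed between 42 and 30 °C. For PAB1, poly(A)-binding protein, the change was -1.69 (log2, adjusted p = 0.000342), from 0.48 ± 0.17 at 30 °C to -1.22 ± 0.17 at 42 °C. For PMA1, the plasma membrane proton pump, it was -0.89 (adjusted p = 0.0205), from 0.48 ± 0.16 to -0.41 ± 0.16. For RPL3, a large subunit ribosomal protein, it was -0.87 (adjusted p = 0.0225), from 0.08 ± 0.16 to -0.79 ± 0.17, and for DED1 -0.79 (adjusted p = 0.0136), from 0.11 ± 0.13 to -0.68 ± 0.14. For HSP12 it was 3.15 (adjusted p = 0.0200), from -0.52 ± 0.60 to 2.63 ± 0.50. None of the 5 was called at 30 °C. The strain difference also differed between soluble and pellet RNA for 67 genes and between soluble and total RNA for 153 genes at 30 °C, as described above.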

How the results depend on the processing

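The number of genes called in soluble RNA at 30 °C was 406 with RLE scaling, 407 without a count filter, 429 at a minimum count of 50, 491 with a GC trend and 509 with a length trend removed, 503 with DESeq2 and 400 with the replicate number as a block. The block is not a pairing here: the deviations of same-numbered libraries of the 2 strains correlated at 0.09, and it changed 4 of 75 calls of named genes. Fitted with the 8 pellet and soluble libraries at 30 °C alone the count was 936, and with the 12 soluble libraries alone it was 160. With the 4 soluble libraries at 30 °C alone it was 537. In that fit 8 of the 75 called named genes lost their call: ENO2, GAL2, MET8, ALD4, FBP1, MTD1, MFA2 and FUS1. DESeq2 called 306 genes in pellets (156 higher, 150 lower), 163 between soluble and pellet, 94 between 40 and 30 °C and 235 between soluble and total RNA. Leaving out 1 library gave 202 to 635 calls in soluble RNA at 30 °C, where 635 is without WT 42 °C soluble replicate 2, an alternative chosen after seeing the data. It gave 27 to 83 in pellets, 25 to 76 between soluble and pellet, 152 to 1483 in total RNA, 78 to 427 between soluble and total, 320 to 353 at 40 °C, 1435 to 2573 at 42 °C, 8 to 33 between 40 and 30 °C and 250 to 1811 between 42 and 30 °C. With the culture (strain and replicate number) as a block, chosen after seeing the data, the differences tested within cultures gave 81 calls between soluble and pellet, 155 between soluble and total, 62 between 40 and 30 °C and 678 between 42 and 30 °C. Where an arm kept 1 library, it was assumed to vary like the other groups. Of 75 called named genes 37 kept direction and call in all 16 alternatives, and 0 of the 75 changed direction. At these depths genes of a few CPM rest on few reads per library.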
